A study of Mus musculus with 8 samples.

Results

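The genes described here are 9 markers of macrophages and other myeloid cells: C1qa, C1qb, C1qc, Lyz2, Csf1r, Adgre1, Tyrobp, Fcer1g and Ear2. They were chosen by name, and their probes were found through the RefSeq accession that the array gives for each probe. This gave 12 probes for the 9 genes, out of 21154 genes with a named probe, and all 9 genes were among the 13510 that were above background widely enough to be tested. The arrays held RNA from 4 populations of mouse CD4 single-positive thymocytes, lysed directly after preparation and without culture. The Nr4a-TKO preTreg cells came from mice lacking Nr4a nuclear receptors and were CD25-high, GITR-high and Nr4a3-high. The Foxp3-KO preTreg cells, from mice lacking Foxp3, were CD25-high and carried the Foxp3 reporter. WT Treg cells were Foxp3+, and WT Tconv cells, the conventional T cells, were CD25-low. Each population had 2 biological replicates. No wild-type precursor was measured, and each precursor therefore differed from the wild-type cells in both genotype and gate. The sources used here do not state age, strain, alleles, mice per replicate or any promoter that drives a reporter or a deletion.

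Macrophages of the thymus take up the many thymocytes that die during selection. C1q marks dying cells for uptake, Csf1r receives the growth signal that macrophages depend on, and Tyrobp and Fcer1g are signalling adaptors of activating receptors on myeloid and natural killer cells. Adgre1 encodes F4/80, a surface marker of macrophages, Lyz2 encodes the lysozyme of granulocytes and macrophages, and Ear2 is an eosinophil-associated ribonuclease, also found in some macrophages. CD4 T cells are not known as a main source of C1q, lysozyme or F4/80.

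C1qa, C1qb and C1qc lie next to each other on chromosome 4, and Lyz2 lies next to its near-copy Lyz1 on chromosome 10. RefSeq promoter sequences (build GRCm38.p6) were at hand for 5 of the 9 genes. Those of C1qb, C1qc and Lyz2 are shown because the C1q genes moved together with lysozyme across the arrays. Each line gives the 250 bases before the annotated start of a transcript, 5′ to 3′ along the gene, all on the minus strand. The capitals mark GAGGAA, a sequence recognised by the myeloid transcription factor PU.1, or TTCCTC, the same sequence read on the other strand.
C1qb, chr4:136886201-136886450: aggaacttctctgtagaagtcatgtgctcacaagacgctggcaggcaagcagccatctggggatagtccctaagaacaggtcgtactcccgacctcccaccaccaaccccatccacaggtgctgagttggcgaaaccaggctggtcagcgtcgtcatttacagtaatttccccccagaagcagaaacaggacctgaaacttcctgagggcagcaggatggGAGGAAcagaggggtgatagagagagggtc
C1qc, chr4:136892915-136893164: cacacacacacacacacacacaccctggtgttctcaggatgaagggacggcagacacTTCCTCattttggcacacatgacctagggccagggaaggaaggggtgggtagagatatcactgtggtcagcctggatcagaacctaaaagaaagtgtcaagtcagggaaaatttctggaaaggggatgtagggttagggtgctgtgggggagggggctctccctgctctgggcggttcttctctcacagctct
Lyz2, chr10:117282273-117282522: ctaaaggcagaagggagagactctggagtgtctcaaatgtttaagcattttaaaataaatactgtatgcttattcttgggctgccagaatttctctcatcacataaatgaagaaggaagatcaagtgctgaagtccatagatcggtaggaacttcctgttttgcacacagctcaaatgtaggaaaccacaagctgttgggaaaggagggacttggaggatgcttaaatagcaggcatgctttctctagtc
In C1qb the match began 30 bases before the start, and in C1qc, on the other strand, it began 193 bases before it. Lyz2, Fcer1g and Ear2 had no match (0) to GAGGAA in this window, and shorter or other forms of the site were not searched. Among all 32851 promoters of the same length, 23.3% held GAGGAA on either strand, so a match is common and is given only as a description of these sequences.

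All signals below are log2 values of the processed intensity relative to the 75th percentile of the same array. A value of 0 is thus the level at the 75th percentile, and a step of 1 is a doubling. The arrays were of like quality, with 47.7% to 52.1% of probes counted as well above background, and the dimmest such signals lay between -5.58 and -4.34. Cd3e and Cd4, which define CD4 T cells, were bright in every population, with Cd3e between 6.91 and 7.24 and Cd4 between 5.0 and 5.64 over the 8 arrays. Cd8a, the marker of the other thymocyte lineage, lay between -2.64 and -0.02. Foxp3 read 3.80 and 3.25 in Nr4a-TKO preTreg, 1.97 and 1.74 in Foxp3-KO preTreg, 5.0 and 4.72 in WT Treg and -3.40 and -3.79 in WT Tconv. The Nr4a transcripts were not lower in the Nr4a-TKO cells than in WT Treg for Nr4a1, at 7.73 and 7.96 against 7.28 and 7.62, nor for Nr4a2, at 3.72 and 3.87 against 1.60 and 1.79. Nr4a3 read -0.42 and -0.12 in Nr4a-TKO preTreg and -0.36 and 1.01 in WT Treg. Where the probes lie relative to the deleted parts is unknown here, and these readings therefore do not check the knockouts.

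The C1q genes, which encode the chains of the complement protein C1q, read higher on all 6 arrays of Nr4a-TKO preTreg, Foxp3-KO preTreg and WT Treg than on either array of WT Tconv, where C1qa and C1qc were not well above background and C1qb was dim but measurable. In replicate 2 of Foxp3-KO preTreg and of WT Treg all 3 C1q genes lay below 0, the level of the 75th percentile. C1qa read 2.95 and 1.74 in Nr4a-TKO preTreg, 1.66 and -1.37 in Foxp3-KO preTreg, 0.57 and -1.28 in WT Treg, and -6.46 and -6.60 in WT Tconv. The WT Tconv values were not well above background on either array, and all 6 other arrays stood far above them. In bulk RNA of sorted cells, fewer cells of a type and less RNA per cell cannot be told apart. Against WT Tconv, C1qa was at least 237-fold higher in Nr4a-TKO preTreg (adjusted p = 0.00293), at least 51.6-fold in Foxp3-KO preTreg (adjusted p = 0.0148) and at least 36.5-fold in WT Treg (adjusted p = 0.0116). Such a lower bound sets the mean of the bright group against the WT Tconv values. Values under the dimmest level that counts as well above background on their array were raised to that level. Where the measured values lay above it, the fold given is the plain estimate. That level is the dimmest on the array, and brighter values can also fail the flag. Lyz2 in WT Tconv replicate 1 read -4.23, above the -5.52 of its array, and was not well above background. The bounds are thus not strict minima.

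C1qc followed the same pattern. It read 3.60 and 2.51 in Nr4a-TKO preTreg, 2.73 and -0.65 in Foxp3-KO preTreg, 1.48 and -0.78 in WT Treg, and -5.51 and -5.64 in WT Tconv, where neither array was well above background. The rise over WT Tconv was at least 387-fold in Nr4a-TKO preTreg (adjusted p = 0.00443), at least 95.8-fold in Foxp3-KO preTreg (adjusted p = 0.0199) and at least 59.2-fold in WT Treg (adjusted p = 0.0185). C1qb was the C1q gene that was measurable in WT Tconv, at -3.13 and -3.08, both well above background. It read 2.31 and 1.29 in Nr4a-TKO preTreg, 1.47 and -1.30 in Foxp3-KO preTreg and 0.28 and -1.19 in WT Treg. No array of these 3 populations overlapped WT Tconv for C1qb. Its difference passed the test in Nr4a-TKO preTreg (4.90 ± 0.99 SE on the log2 scale, adjusted p = 0.0117). It missed the threshold in Foxp3-KO preTreg (3.19 ± 0.99, adjusted p = 0.0662) and in WT Treg (2.65 ± 0.99, adjusted p = 0.0891).

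Lyz2 was higher than in WT Tconv in all 3 populations. It read 1.59 and 0.38 in Nr4a-TKO preTreg, 1.12 and -0.87 in Foxp3-KO preTreg, -0.92 and -1.71 in WT Treg and -4.23 and -4.05 in WT Tconv, where 1 of 2 arrays was well above background, so that the differences rest in part on a value not well above it. The groups did not overlap with WT Tconv. The log2 differences from WT Tconv were 5.13 ± 0.74 in Nr4a-TKO preTreg (adjusted p = 0.0043), 4.27 ± 0.74 in Foxp3-KO preTreg (adjusted p = 0.0159) and 2.83 ± 0.74 in WT Treg (adjusted p = 0.034). Lyz1 is nearly identical in sequence, and how far the Lyz2 probe also reads Lyz1 is not known from the files, so the value belongs to the pair. The Lyz1 probe read 4.06 and 2.49 in Nr4a-TKO preTreg, 3.41 and 1.25 in Foxp3-KO preTreg, 1.06 and -0.38 in WT Treg and -3.61 and -2.08 in WT Tconv, with the populations in the same order.

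Adgre1 was not well above background in WT Tconv on either of its 2 probes and was measured on all other arrays. Its brighter probe read -0.35 and -0.96 in Nr4a-TKO preTreg, 0.27 and -2.59 in Foxp3-KO preTreg, -0.69 and -2.86 in WT Treg and -6.34 and -6.47 in WT Tconv. On this probe, against WT Tconv, Adgre1 was at least 29.6-fold higher in Nr4a-TKO preTreg (adjusted p = 0.00986), at least 20.9-fold in Foxp3-KO preTreg (adjusted p = 0.0252) and at least 13.6-fold in WT Treg (adjusted p = 0.0251). Among the 9 genes, Adgre1 thus combined a clear distance from WT Tconv with overlapping levels in the precursors and WT Treg. The second probe also had WT Tconv lowest, but by a smaller distance, so the folds above hold for the brighter probe alone. It read -1.78 and -2.70 in Nr4a-TKO preTreg, -1.11 and -3.37 in Foxp3-KO preTreg, -1.88 and -3.59 in WT Treg and -4.60 and -4.67 in WT Tconv. On that probe the means of Nr4a-TKO preTreg and Foxp3-KO preTreg were both -2.24, with -2.73 in WT Treg and -4.64 in WT Tconv.

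Csf1r, the receptor for the macrophage growth factors CSF1 and IL-34, was measured in every population, and its 3 probes disagreed. The brightest probe read 4.74 and 3.70 in Nr4a-TKO preTreg, 3.55 and 1.75 in Foxp3-KO preTreg, 2.51 and 1.41 in WT Treg and 0.61 and 0.42 in WT Tconv. On this probe the log2 difference from WT Tconv was 3.71 ± 0.71 in Nr4a-TKO preTreg (adjusted p = 0.0100). The differences of 2.14 ± 0.71 in Foxp3-KO preTreg (adjusted p = 0.0786) and 1.45 ± 0.71 in WT Treg (adjusted p = 0.168) did not pass, although the arrays did not overlap. The dimmest probe spanned a smaller range, with 0.10 and -0.44 in Nr4a-TKO preTreg, -0.48 and -1.11 in Foxp3-KO preTreg, -0.89 and -1.62 in WT Treg and -1.02 and -1.02 in WT Tconv. On that probe the arrays of Foxp3-KO preTreg and of WT Treg each overlapped those of WT Tconv. On the remaining probe, which lay between these in mean brightness, all 8 arrays lay between 0.25 and 0.67. The 2 lowest were those of Nr4a-TKO preTreg, at 0.25 and 0.33, against 0.39 and 0.54 in WT Tconv, the opposite order to the brightest probe. The Csf1r result therefore rests on which probe is read.

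The adaptors Tyrobp and Fcer1g were already above background in WT Tconv, near the 75th percentile, and were brightest in the precursors. Tyrobp (also called DAP12) read 3.64 and 3.09 in Nr4a-TKO preTreg, 4.64 and 3.04 in Foxp3-KO preTreg, 2.19 and 0.90 in WT Treg, and 0.53 on both arrays of WT Tconv. It was the gene with its highest mean in Foxp3-KO preTreg. The log2 difference from WT Tconv was 2.83 ± 0.64 in Nr4a-TKO preTreg (adjusted p = 0.0167), 3.31 ± 0.64 in Foxp3-KO preTreg (adjusted p = 0.0207) and 1.01 ± 0.64 in WT Treg (adjusted p = 0.266). Fcer1g, the common gamma chain of Fc receptors, read 3.49 and 2.81 in Nr4a-TKO preTreg, 4.21 and 1.56 in Foxp3-KO preTreg, 1.33 and -0.02 in WT Treg and 0.24 and 0.30 in WT Tconv. WT Treg and WT Tconv overlapped for Fcer1g, the sole overlap of a population with WT Tconv among the 9 genes when each gene is read on its brightest probe. The difference passed in Nr4a-TKO preTreg (2.88 ± 0.92, adjusted p = 0.0465), and missed the threshold in Foxp3-KO preTreg (2.62 ± 0.92, adjusted p = 0.0895) and in WT Treg (0.39 ± 0.92, adjusted p = 0.773).

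Ear2 had the widest range among the 5 genes that were well above background on both WT Tconv arrays. It read 4.11 and 2.56 in Nr4a-TKO preTreg, 3.20 and 1.22 in Foxp3-KO preTreg, 0.94 and -1.12 in WT Treg and -3.89 and -3.75 in WT Tconv. The log2 difference from WT Tconv was 7.16 ± 0.98 in Nr4a-TKO preTreg (adjusted p = 0.00358), 6.04 ± 0.98 in Foxp3-KO preTreg (adjusted p = 0.0134) and 3.73 ± 0.98 in WT Treg (adjusted p = 0.0337). Ear2 belongs to a cluster of near-identical ribonuclease genes, so the probe may read several of them, and the value is uncertain as a measure of Ear2 alone.

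**Figure D1:**
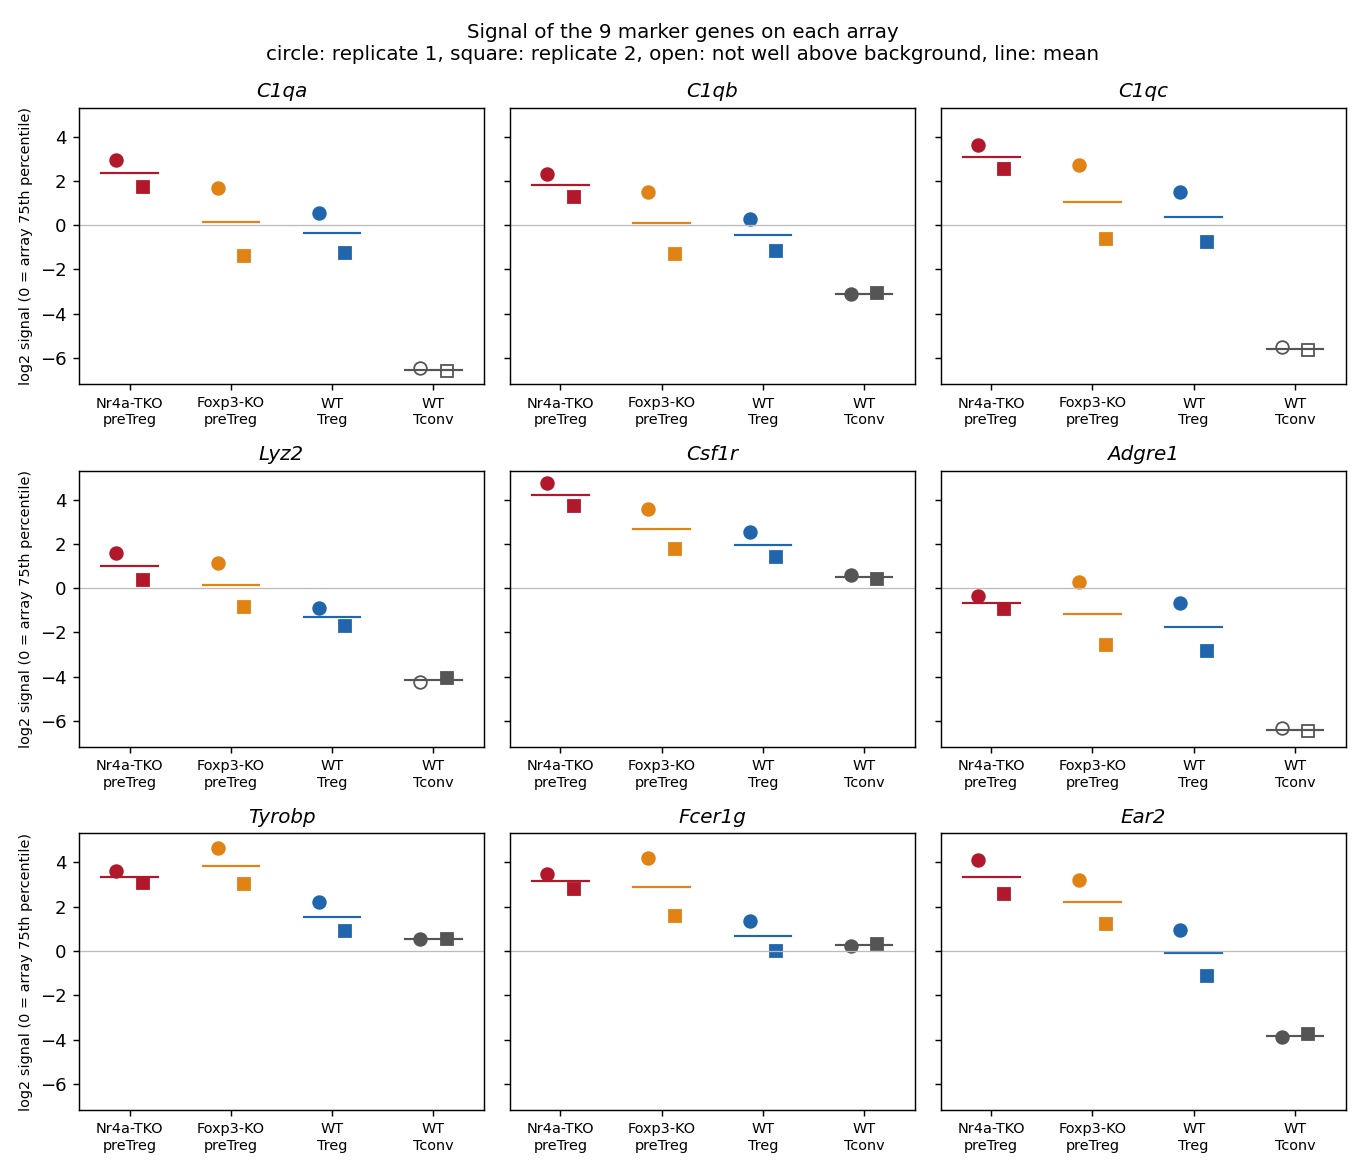
Log2 signal relative to the 75th percentile of the array (vertical axis) of the 9 marker genes, 1 panel each, in the 4 populations (horizontal axis), with circles for replicate 1, squares for replicate 2, open symbols where the probe was not well above background, and a line at the mean. Replicate 1 lies above replicate 2 in Nr4a-TKO preTreg, Foxp3-KO preTreg and WT Treg in all 9 panels, and both WT Tconv arrays lie together at the bottom, with the exception of Fcer1g, where WT Treg replicate 2 reads -0.02, below WT Tconv.

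Ordered by group mean, 8 of the 9 genes ran from Nr4a-TKO preTreg through Foxp3-KO preTreg and WT Treg down to WT Tconv, and Tyrobp had Foxp3-KO preTreg above Nr4a-TKO preTreg. As an example of the spread, C1qa averaged 2.34 ± 0.85 in Nr4a-TKO preTreg, 0.14 ± 2.14 in Foxp3-KO preTreg, -0.36 ± 1.30 in WT Treg and -6.53 ± 0.10 in WT Tconv (SD, n = 2 each). The neighbours at the top of this order were not told apart: against Foxp3-KO preTreg, none (0) of the 9 genes passed the test in Nr4a-TKO preTreg in limma, where 18.0% of all genes were called higher. At an unadjusted p under 0.05, 0 of the 9 passed, beside 6296 of the 13510 genes in either direction. In that comparison both Nr4a-TKO arrays lay above both Foxp3-KO arrays for 2 of 9 genes, C1qa and Csf1r, where 35.9% of all genes did so.

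Against WT Tconv, all 9 genes were called higher in Nr4a-TKO preTreg, where 21.4% of all genes were called higher (adjusted p under 0.05). The median log2 difference of the 9 was 5.13, or 4.90 with C1qa, C1qc and Adgre1 at their lower bounds, beside a median of -0.096 over all genes tested. With the arrays left out in turn, the count was 4 without Nr4a-TKO preTreg replicate 1 and 4 without either WT Tconv replicate. In Foxp3-KO preTreg 6 of 9 were called higher, where 10.4% of all genes were, with a median of 4.27. That count was 0 without either WT Tconv replicate and 1 when these populations were fitted alone. In WT Treg 5 of 9 were called higher, where 13.8% of all genes were, with a median of 2.83, and the count was 0 without WT Treg replicate 1, without either WT Tconv replicate and with normexp background correction in place of the processed signal. When a single array of a population remains, the fit assumes that it varies like the other populations. The arrays lay on 1 slide, with Nr4a-TKO preTreg and WT Tconv in one row and Foxp3-KO preTreg and WT Treg in the other. Within a row, the fit of those populations alone called 9 of 9 genes higher in Nr4a-TKO preTreg than in WT Tconv, where it called 22.3% of all genes higher. For Foxp3-KO preTreg against WT Treg the same kind of fit in limma called 0 of 13510 genes, the 9 among them, with 2291 of all genes and 1 of the 9 at an unadjusted p under 0.05, so that its count says nothing of these genes in particular. In the other comparisons row and population cannot be told apart.

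**Figure D2:**
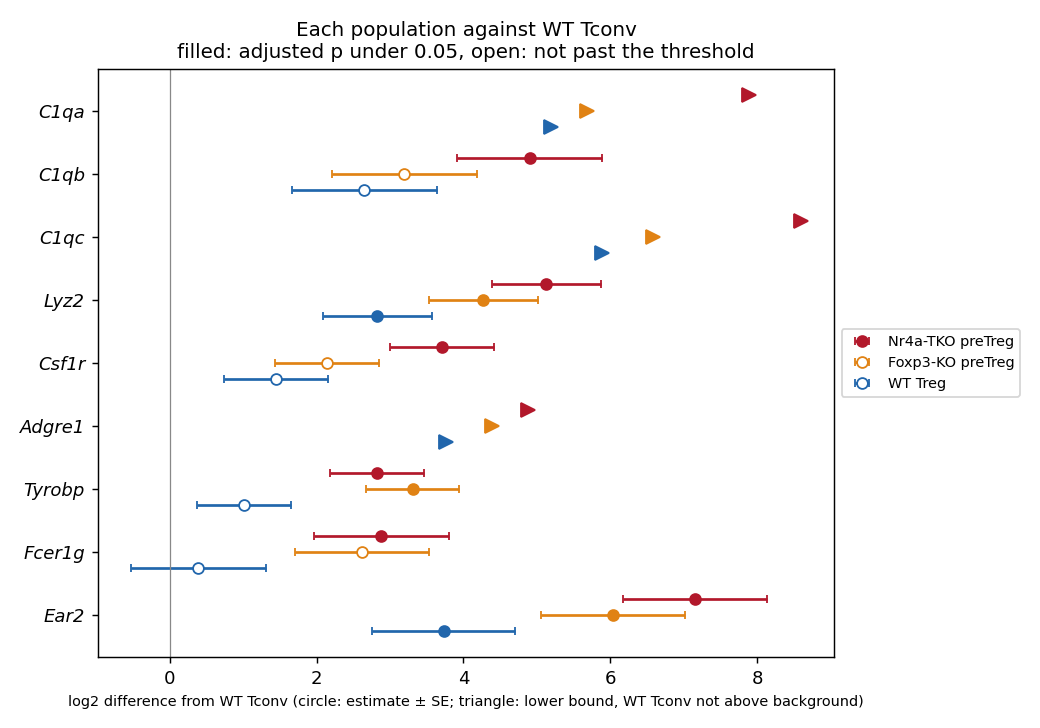
Log2 difference from WT Tconv (horizontal axis) of each of the 9 genes (rows) in Nr4a-TKO preTreg, Foxp3-KO preTreg and WT Treg, as estimate ± SE (circles) or, for C1qa, C1qc and Adgre1, as the lower bound set by the background level (triangles), filled where the adjusted p was under 0.05. All 9 symbols of Nr4a-TKO preTreg are filled, against 6 of Foxp3-KO preTreg and 5 of WT Treg.

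By the plain order of the arrays, both arrays of Nr4a-TKO preTreg lay above both of WT Tconv for 9 of 9 genes, where this held for 33.6% of all genes. The same held for Foxp3-KO preTreg for 9 of 9 genes (25.8% of all genes) and for WT Treg for 8 of 9 genes (30.8% of all genes).

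Between Nr4a-TKO preTreg and WT Treg, Ear2 was the gene that passed the test, 3.42 ± 0.98 higher on the log2 scale (adjusted p = 0.0435), so that 1 of 9 genes was called where 19.4% of all genes were called higher. The other 8 had log2 differences between 1.12 for Adgre1 and 2.71 for C1qc, with adjusted p between 0.0559 and 0.456. Both Nr4a-TKO arrays lay above both WT Treg arrays for 8 of 9 genes, Adgre1 being the exception, where this held for 38.5% of all genes. The count of 1 depended on the arrays: it was 7 without either Foxp3-KO preTreg replicate, and 0 without either Nr4a-TKO preTreg replicate, without either WT Tconv replicate or without WT Treg replicate 2. It was 5 with normexp background correction or with an intensity trend in the fit, and 0 without a filter on dim probes. Between Foxp3-KO preTreg and WT Treg none (0 of 9) was called, where 3.48% of all genes were called higher. An unadjusted p under 0.05 in limma was found for 1 of 9, beside 3430 of the 13510 genes in either direction. Log2 differences ran from 0.50 for C1qa to 2.30 for Ear2, and the arrays were separated for 4 of 9 genes (Lyz2, Tyrobp, Fcer1g and Ear2), where 26.4% of all genes were. Without Foxp3-KO preTreg replicate 2 that count was 1, and without Foxp3-KO preTreg replicate 1 the count between the precursors was 4. The comparisons against WT Tconv share its 2 arrays, and those against WT Treg share that population's 2 arrays.

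The 2 replicates of a population differed in these genes in a way that most genes did not share. In Foxp3-KO preTreg, replicate 1 read higher than replicate 2 for 9 of 9 genes, by a median of 2.65 on the log2 scale (6.29-fold), with the smallest gap in Tyrobp (1.60) and the widest in C1qc (3.38). All 9 gaps were more than 2-fold, where 6.65% of all genes had such a gap in that direction. In WT Treg replicate 1 was again higher for 9 of 9, by a median of 1.47 (2.77-fold), from 0.79 for Lyz2 to 2.26 for C1qc, and 8 of 9 were more than 2-fold, against 2.94% of all genes. In Nr4a-TKO preTreg the median gap was 1.04 (2.06-fold), from 0.55 for Tyrobp to 1.55 for Ear2, and 6 of 9 were more than 2-fold, against 2.12% of all genes. In WT Tconv the replicates lay between -0.18 and 0.18 apart, with a median of -0.002, and none (0 of 9) was more than 2-fold higher in replicate 1, against 0.533% of all genes. Over all genes the median gap lay between -0.023 and 0.008 in the 4 populations. With 2 arrays a population these gaps are a description and have no test.

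**Figure D3:**
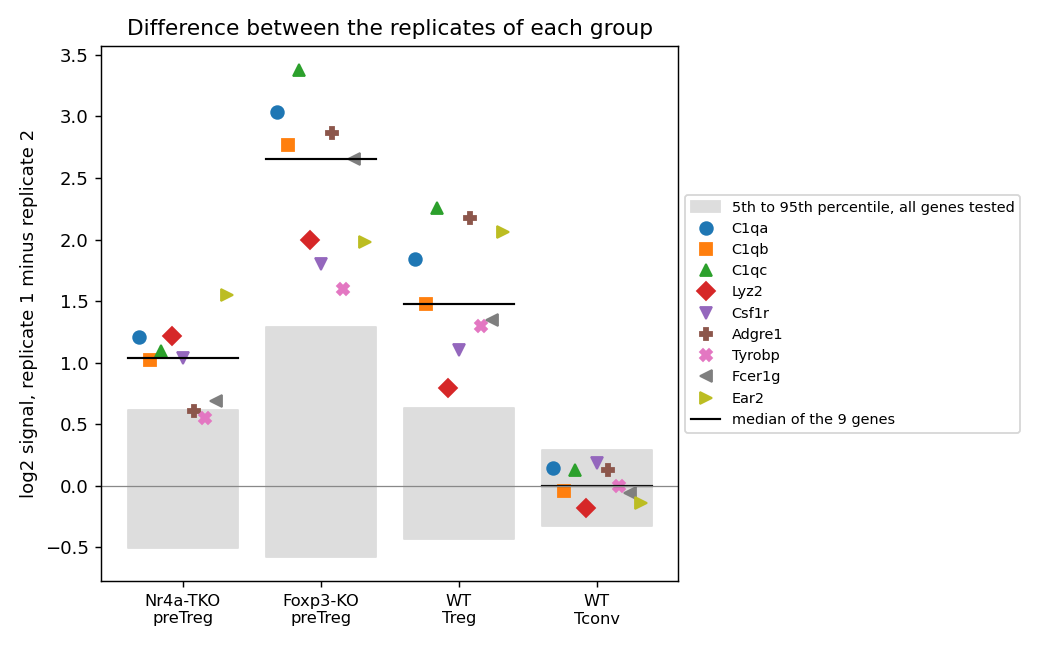
Log2 signal of replicate 1 minus replicate 2 (vertical axis) for the 9 genes in each population (horizontal axis), with a black line at their median and a grey band from the 5th to the 95th percentile of all genes tested. The medians are 1.04 in Nr4a-TKO preTreg, 2.65 in Foxp3-KO preTreg, 1.47 in WT Treg and -0.002 in WT Tconv, and all 9 genes lie above the band in Foxp3-KO preTreg and in WT Treg.

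In replicate 2 of Foxp3-KO preTreg, the 3 C1q genes and Adgre1 read below 0, close to replicate 2 of WT Treg: C1qa at -1.37 against -1.28, C1qb at -1.30 against -1.19, C1qc at -0.65 against -0.78 and Adgre1 at -2.59 against -2.86. Tyrobp, Fcer1g and Ear2 did not follow, and read 3.04, 1.56 and 1.22 there, against 0.90, -0.02 and -1.12 in WT Treg replicate 2. Lyz2 read -0.87 against -1.71, and Csf1r on its brightest probe 1.75 against 1.41. Summed over the 9 genes on the linear scale, where 1 is the 75th percentile, the signal was 96.3 and 47.7 in Nr4a-TKO preTreg, 80.4 and 19.0 in Foxp3-KO preTreg, 21.4 and 7.85 in WT Treg and 4.43 and 4.31 in WT Tconv. The sum was higher in replicate 1 in each of these populations, and Foxp3-KO preTreg replicate 2 lay below WT Treg replicate 1. When replicate 1 of Foxp3-KO preTreg and of WT Treg were both left out, a choice made after seeing the data, the counts of genes called higher than in WT Tconv were 9 in Nr4a-TKO preTreg (22.3% of all genes), 6 in Foxp3-KO preTreg (7.08% of all genes) and 3 in WT Treg (12.5% of all genes). In the same fit 9 genes were called higher in Nr4a-TKO preTreg than in WT Treg, where 17.8% of all genes were, and 6 higher than in Foxp3-KO preTreg, where 19.4% of all genes were. This fit holds a single array of Foxp3-KO preTreg and of WT Treg.

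Of the other genes of macrophage function, taken from lists of the pathway, most passed the test in Nr4a-TKO preTreg and fewer in Foxp3-KO preTreg and WT Treg. Whether these counts differ between the populations was not tested. Of all genes tested, 21.4% were called higher than in WT Tconv in Nr4a-TKO preTreg, 10.4% in Foxp3-KO preTreg and 13.8% in WT Treg. The shares called lower were 26.7%, 14.3% and 21.5% in the same order. Each list count against WT Tconv below is to be read beside these shares. Of 17 tested genes of efferocytosis and scavenging, 14 were called higher in Nr4a-TKO preTreg than in WT Tconv, 6 in Foxp3-KO preTreg and 4 in WT Treg, and none (0) was called lower. The first count was 5 without Nr4a-TKO preTreg replicate 1 or WT Tconv replicate 1 and 6 without WT Tconv replicate 2, and the others were 0 without either WT Tconv replicate. For Foxp3-KO preTreg the count was also 2 without its replicate 1, 12 without its replicate 2 and 1 without either Nr4a-TKO preTreg replicate. For WT Treg it was also 0 without WT Treg replicate 1, 8 without either Foxp3-KO preTreg replicate and 2 without either Nr4a-TKO preTreg replicate. Of the 20 genes in this list, 17 were above background on both Nr4a-TKO preTreg arrays and 5 on both WT Tconv arrays. Genes that were tested through their signal in Nr4a-TKO preTreg had little room to be called lower there. Stab1, a scavenger receptor, read 1.66 and 1.49 in Nr4a-TKO preTreg and -6.22 and -5.35 in WT Tconv, at least 129-fold higher (adjusted p = 0.00214), and was not above background in Foxp3-KO preTreg. Axl, a receptor for dying cells, was higher by 3.70 ± 0.58 (adjusted p = 0.00539), with 3.15 and 3.16 in Nr4a-TKO preTreg against -0.67 and -0.42 in WT Tconv. Vcam1, an adhesion molecule of tissue macrophages and stroma, read 3.08 and 0.08 in Foxp3-KO preTreg and exceeded WT Tconv by at least 94.2-fold (adjusted p = 0.0184). Among genes that mark resident macrophages, Timd4, Cd163 and Vsig4 were not above background on any array.

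The complement genes outside C1q behaved less evenly. Of 9 tested, 5 were called higher in Nr4a-TKO preTreg than in WT Tconv and 1 lower, where 26.7% of all genes were called lower, and the count of 5 was 3 without Nr4a-TKO preTreg replicate 1 or either WT Tconv replicate. In Foxp3-KO preTreg and in WT Treg 1 of the 9, Cfb, was called higher than in WT Tconv, and none (0) was without either WT Tconv replicate or, in WT Treg, without its replicate 1. The WT Treg count was 2 without any one array of either precursor, and the Foxp3-KO preTreg count was 2 without Foxp3-KO preTreg replicate 2. The gene called lower in Nr4a-TKO preTreg was Itgam, at -0.32 ± 0.08 against WT Tconv (adjusted p = 0.0196), and it was also called lower there than in WT Treg. The 1 of 9 called higher in Foxp3-KO preTreg and in WT Treg stood near the 10.4% and 13.8% of all genes called higher. Cfb, a protease component of the alternative pathway, read 2.14 and 0.96 in Nr4a-TKO preTreg and -6.20 and -5.95 in WT Tconv, at least 137-fold higher (adjusted p = 0.0015). C4b, which is cleaved after C1q binds, read 3.19 and 1.99 in Nr4a-TKO preTreg, -1.19 and -1.11 in Foxp3-KO preTreg, -1.38 and -1.44 in WT Treg and -1.07 and -1.03 in WT Tconv. C4b therefore stood out on the Nr4a-TKO arrays alone among the 8 (3.64 ± 0.37 above WT Tconv, adjusted p = 0.00154), while the arrays of all 3 populations lay above WT Tconv for C1qa, C1qb and C1qc.

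Partners of the adaptors were tested next, since Tyrobp and Fcer1g carry no ligand-binding part of their own. Of 10 tested receptors and kinases that use them, 7 were higher in Nr4a-TKO preTreg than in WT Tconv and 1 lower, and the count of 7 was 4 without Nr4a-TKO preTreg replicate 1 or WT Tconv replicate 1. The gene called lower was Trem1. Fcgr1, a high-affinity Fc receptor, read -0.62 and -1.61 in Nr4a-TKO preTreg and -6.25 and -6.38 in WT Tconv, at least 21.6-fold higher (adjusted p = 0.00288). Clec4n (dectin-2), a lectin receptor for fungal sugars, read 2.03 and 1.18 in Nr4a-TKO preTreg, 1.61 and -0.31 in Foxp3-KO preTreg, 0.03 and -1.90 in WT Treg and -3.70 and -4.20 in WT Tconv. Clec4n passed the test against WT Tconv in all 3, by 5.56 ± 0.87 in Nr4a-TKO preTreg (adjusted p = 0.00547), 4.60 ± 0.87 in Foxp3-KO preTreg (adjusted p = 0.0195) and 3.02 ± 0.87 in WT Treg (adjusted p = 0.0444). Among inhibitory receptors of myeloid cells, 5 of 10 were higher in Nr4a-TKO preTreg and 1, Siglece, was lower. Lilrb4a, which is also found on activated T cells, read 5.75 and 5.35 there and -4.56 and -4.82 in WT Tconv, where it was not above background.

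Of 11 tested myeloid transcription factors, 10 were higher in Nr4a-TKO preTreg than in WT Tconv and none (0) was lower, and the count of 10 was 7 with any of Nr4a-TKO preTreg replicate 1, WT Tconv replicate 1 or WT Tconv replicate 2 left out. Of the 13 factors in the list, 11 were above background on both Nr4a-TKO preTreg arrays and 6 on both WT Tconv arrays. The lack of lower calls therefore says little. Irf8, a factor of monocytes, dendritic cells and B cells, read 3.67 and 3.03 in Nr4a-TKO preTreg, 3.65 and 3.23 in Foxp3-KO preTreg, 2.73 and 2.75 in WT Treg and 0.98 and 1.03 in WT Tconv. Zeb2, a factor of macrophages and effector T cells, read 0.92 and 0.46 in Nr4a-TKO preTreg and -4.99 and -5.29 in WT Tconv, where it was not above background. The plain estimate was 56.8-fold higher (adjusted p = 0.00287). Spi1, the gene for PU.1, was dim, at -3.96 and -4.39 in Nr4a-TKO preTreg, and was above background on 1 array of that population and on none of the other 6. Of 19 tested lysosomal and lysozyme genes, 14 were higher in Nr4a-TKO preTreg and 1 lower, and the count of 14 was 8 without either WT Tconv replicate. In Foxp3-KO preTreg 9 of these 19 were higher than in WT Tconv and 1, Gpnmb, was lower (14.3% of all genes were lower), and the count of 9 was 1 without either WT Tconv replicate and 2 without Foxp3-KO preTreg replicate 1. In WT Treg 2 were higher, Ncf1 and Ctss, and 3 were lower, Gpnmb, Ctsd and Ctsc, where 21.5% of all genes were lower; the count of 2 was 6 without either Foxp3-KO preTreg replicate. The 2 of 19 called higher in WT Treg stood beside 13.8% of all genes. Gpnmb was also the gene called lower in Nr4a-TKO preTreg. The cathepsin gene Ctsd read 5.83 and 5.77 in Nr4a-TKO preTreg, 5.05 and 4.52 in Foxp3-KO preTreg, 4.45 and 4.40 in WT Treg and 5.26 and 5.33 in WT Tconv, an order unlike that of the 9 genes. Aif1, a calcium-binding protein of macrophages, read 3.70 and 2.78 in Nr4a-TKO preTreg and -1.67 and -1.99 in WT Tconv (5.06 ± 0.80, adjusted p = 0.00566).

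Among 13 tested genes of the Csf1r axis and other myeloid growth factor receptors, 8 were higher in Nr4a-TKO preTreg than in WT Tconv and 3 lower. The 3 were Il34, Csf3r and Tlr7. Cx3cr1, the fractalkine receptor of monocytes and some T cells, read 3.05 and 3.11 in Nr4a-TKO preTreg and -1.71 and -1.37 in WT Tconv (4.62 ± 0.71, adjusted p = 0.00509). Il34, a ligand of Csf1r, went the other way, with -3.53 and -4.08 in Nr4a-TKO preTreg against -1.52 and -1.68 in WT Tconv (-2.21 ± 0.37, adjusted p = 0.00677). Kit, the stem cell factor receptor, was not ordered like the 9 genes: it read -1.37 and -0.77 in Nr4a-TKO preTreg, 2.20 and 1.76 in Foxp3-KO preTreg, 1.46 and 1.29 in WT Treg and -3.53 and -3.46 in WT Tconv.

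Most relatives of Ear2 were called with it. Of 7 tested genes of eosinophils and the Ear family, 5 were higher in Nr4a-TKO preTreg than in WT Tconv and 1, Ear6, was lower. Ear1 read 1.66 and 0.37 in Nr4a-TKO preTreg, 0.85 and -0.90 in Foxp3-KO preTreg, -1.33 and -3.26 in WT Treg and -6.30 and -6.44 in WT Tconv, and was at least 94.4-fold higher in Nr4a-TKO preTreg (adjusted p = 0.00245). Rnase2a read 2.85 and 1.06 in Nr4a-TKO preTreg and -4.37 and -4.65 in WT Tconv, where it was not above background. The plain estimate was 88.4-fold higher (adjusted p = 0.00491). These probes may share sequence with Ear2, which was not checked, and they are not counted as independent of it. Genes of eosinophils outside the Ear family differed among themselves. Epx, the eosinophil peroxidase, and Siglecf, a surface lectin of eosinophils, were not above background on any array. Prg2, the major basic protein of eosinophil granules, read -3.05 and -4.94 in Nr4a-TKO preTreg, -2.01 and -3.43 in Foxp3-KO preTreg, -3.32 and -4.42 in WT Treg and -6.36 and -6.50 in WT Tconv, where neither array was well above background. Prg2 was called higher than in WT Tconv in Nr4a-TKO preTreg (at least 2.93-fold, adjusted p = 0.0484) and in Foxp3-KO preTreg (at least 7.09-fold, adjusted p = 0.0261). Ccr3, the eotaxin receptor, read 1.28 and -0.27 in Nr4a-TKO preTreg and exceeded WT Tconv by an estimated 39.8-fold (adjusted p = 0.00354). It was not above background in WT Tconv or in Foxp3-KO preTreg.

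Across the 8 arrays, the genes most alike to the mean profile of the 9 were Cd300c2 (Pearson r = 0.996), Clec4n (0.994), Lpl (0.994), Aif1 (0.993), Icosl (0.992), Mrc1 (0.992), Ms4a7 (0.990), Il18 (0.989), Ltbr (0.989) and Sirpa (0.989). In all, 133 genes reached an r of 0.95. The points share populations and replicate gaps, so these values describe likeness and carry no test. Mrc1, the macrophage mannose receptor, read 1.25 and -0.19 in Nr4a-TKO preTreg, 0.12 and -3.01 in Foxp3-KO preTreg, -0.99 and -3.65 in WT Treg and -6.20 and -6.36 in WT Tconv. Ms4a7, a membrane protein of macrophages, read 2.61 and 1.36 in Nr4a-TKO preTreg, 1.51 and -1.67 in Foxp3-KO preTreg, 0.26 and -2.29 in WT Treg and -4.99 and -4.49 in WT Tconv. Both repeated the step between the replicates as well as the step between the populations. Within the 9, the likeness to their own mean was lowest for Fcer1g (0.888) and Tyrobp (0.915) and highest for Lyz2 (0.994). That mean holds the gene itself, so these values cannot be set beside those of the other genes.

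Markers of other cell types were read beside these genes, because a sort may hold other cells. The summed signal of 12 B cell markers was 72.1 and 17.3 in Nr4a-TKO preTreg, 36.4 and 5.85 in Foxp3-KO preTreg, 6.26 and 5.32 in WT Treg and 2.11 and 2.07 in WT Tconv. Of these 12, 9 were above background on both Nr4a-TKO preTreg arrays and 3 on both WT Tconv arrays. Of 9 tested, 8 were called higher in Nr4a-TKO preTreg than in WT Tconv, with 5, 2 and 3 called without Nr4a-TKO preTreg replicate 1, WT Tconv replicate 1 and WT Tconv replicate 2 in turn. The B cell markers were thus higher in replicate 1 of both precursors, like the 9 genes, by a median of 2.0 in Nr4a-TKO preTreg and 1.68 in Foxp3-KO preTreg, with 0.32 in WT Treg.

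MHC class II presentation genes, which B cells, dendritic cells and macrophages express, summed to 402.4 and 271.4 in Nr4a-TKO preTreg, 254.5 and 182.4 in Foxp3-KO preTreg, 142.0 and 56.7 in WT Treg and 22.7 and 24.0 in WT Tconv. Of 10, 9 were called higher in Nr4a-TKO preTreg than in WT Tconv, and 5 without Nr4a-TKO preTreg replicate 1 or WT Tconv replicate 1. Natural killer and innate lymphoid markers were higher in replicate 1 of Foxp3-KO preTreg for 12 of 12 genes, by a median of 2.78, while the medians were 0.03 in Nr4a-TKO preTreg and 0.17 in WT Treg. They summed to 251.8 and 220.3 in Nr4a-TKO preTreg, 190.0 and 59.9 in Foxp3-KO preTreg, 113.1 and 124.7 in WT Treg and 53.1 and 53.8 in WT Tconv. Of 12 tested, 3 were called higher than in WT Tconv in Nr4a-TKO preTreg, 2 in Foxp3-KO preTreg and 1, Il2rb, in WT Treg. Klra8 and Klrb1c were called lower in Nr4a-TKO preTreg, and these with Klrd1 and Klrc1 in WT Treg. The mean log2 signal of the list was -0.87 and -1.07 in WT Treg and 0.73 on both WT Tconv arrays, the opposite order to the sums. Tyrobp and Fcer1g are expressed by natural killer cells as well as by myeloid cells. The T cell markers, by contrast, differed between replicates by medians of -0.06 in Nr4a-TKO preTreg, -0.22 in Foxp3-KO preTreg, -0.03 in WT Treg and -0.01 in WT Tconv. They were not level between the populations. Of 15 tested, 6 were called lower than in WT Tconv in Nr4a-TKO preTreg, 3 in Foxp3-KO preTreg and 11 in WT Treg. In the same order 26.7%, 14.3% and 21.5% of all genes were called lower. Called higher were 1, 2 and 2 of the 15.

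Red cell markers summed to between 3.39 and 3.88 over the 8 arrays, but dim members differed between the populations. Of 5 tested, 2 were called higher in Nr4a-TKO preTreg than in WT Tconv, with 1 called without Nr4a-TKO preTreg replicate 1 or either WT Tconv replicate. Hbb-bt, a haemoglobin chain, read -1.15 and -3.17 in Nr4a-TKO preTreg and -6.24 and -6.37 in WT Tconv, at least 10.46-fold higher (adjusted p = 0.00674), and Epor, the erythropoietin receptor, was at least 5.81-fold higher (adjusted p = 0.016). The mean log2 signal of the red cell list was -1.85 and -1.96 in Nr4a-TKO preTreg, -2.39 and -2.75 in Foxp3-KO preTreg, -3.04 and -3.12 in WT Treg and -3.38 and -3.40 in WT Tconv. Stroma and vessel markers summed to between 1.76 and 2.46, and of 7 tested, Col1a2, Epcam and Aire were called higher than in WT Tconv both in Nr4a-TKO preTreg and in WT Treg, and Cdh5 lower in both. The 3 called in WT Treg were 0 without WT Tconv replicate 1 or WT Treg replicate 2 and 1 without WT Treg replicate 1. In Foxp3-KO preTreg 1 of 7, Epcam, was called higher, and 0 without either WT Tconv replicate or Foxp3-KO preTreg replicate 2. Beside that 1 of 7, 10.4% of all genes were called higher in Foxp3-KO preTreg. Krt8, Foxn1, Psmb11, Pdgfra, Pdgfrb and Alas2 were not above background on any array.

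Neutrophil genes Ngp, Retnlg and Fcnb were also not above background on any array, while the list of granulocyte and monocyte genes that holds them summed to 39.5 and 27.3 in Nr4a-TKO preTreg, 20.8 and 9.51 in Foxp3-KO preTreg, 7.65 and 3.63 in WT Treg and 8.80 and 8.95 in WT Tconv. Of its 8 tested genes, 3 were called higher in Nr4a-TKO preTreg than in WT Tconv and 1, Mpo, lower, with 1 called higher without Nr4a-TKO preTreg replicate 1 or either WT Tconv replicate. Ltf, the lactoferrin of neutrophil granules, read -1.35 and -1.74 in Nr4a-TKO preTreg, -5.83 and -6.15 in Foxp3-KO preTreg, -3.10 and -5.57 in WT Treg and -6.14 and -6.56 in WT Tconv, and was at least 16.0-fold higher in Nr4a-TKO preTreg than in WT Tconv (adjusted p = 0.00577). Plac8 was higher by 2.0 ± 0.47 (adjusted p = 0.0188) and Chil3, a chitinase-like protein of macrophages and neutrophils, by 5.26 ± 1.46 (adjusted p = 0.0312). In Foxp3-KO preTreg 0 of the 8 genes were called against WT Tconv. The median log2 difference of the 8 from WT Tconv was -0.135 in Nr4a-TKO preTreg and -0.028 in Foxp3-KO preTreg. The rise of the sums was thus not shared by the median gene of the list. Xcr1, a marker of cross-presenting dendritic cells, was not above background, and 8 of 13 dendritic cell genes were called higher in Nr4a-TKO preTreg than in WT Tconv, with 5 called without Nr4a-TKO preTreg replicate 1 or WT Tconv replicate 1 and 4 without WT Tconv replicate 2. In Foxp3-KO preTreg 7 of the 13 were called higher, and 6 in WT Treg. The median log2 differences of this list from WT Tconv were 1.18 in Nr4a-TKO preTreg, 2.03 in Foxp3-KO preTreg and 1.76 in WT Treg, an order unlike that of the 9 genes. Its median replicate gaps were -0.11, 0.08 and 0.08 in the same order. Ccr9 was called lower in Nr4a-TKO preTreg and in WT Treg. Cd83, an activation marker of dendritic cells and T cells, was above WT Tconv by 6.67 ± 0.30 in Nr4a-TKO preTreg (adjusted p = 0.00022). The part of B cells, natural killer cells, granulocytes, red cells, stroma or other myeloid cells in the values of the 9 genes was not tested.

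**Figure D4:**
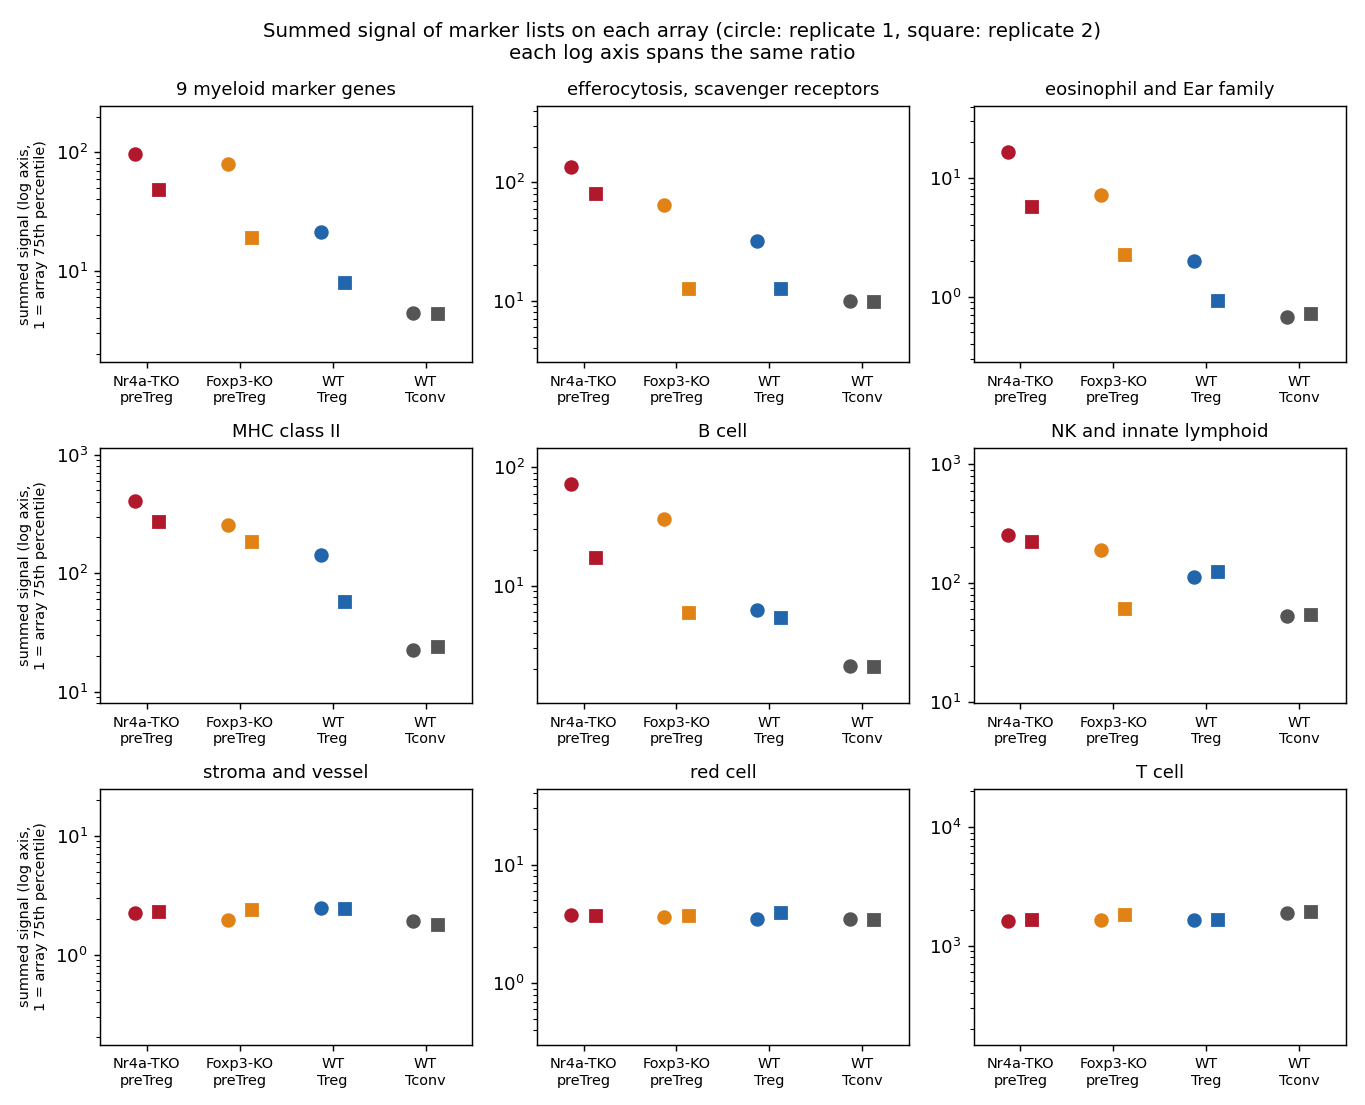
Summed linear signal (log axes that each span the same ratio, with 1 at the 75th percentile of the array) of the 9 genes and of 8 marker lists on each array, with circles for replicate 1 and squares for replicate 2. The 9 genes sum to 80.4 and 19.0 in Foxp3-KO preTreg and to 4.43 and 4.31 in WT Tconv, while the red cell sum stays between 3.39 and 3.88 with 2 of its 5 tested genes called higher in Nr4a-TKO preTreg than in WT Tconv.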

How the data were processed

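RNA of 8 samples was labelled with Cy3 and read on 1-colour Agilent arrays that shared 1 slide. Per the file headers, the processed Cy3 intensity was written by Agilent Feature Extraction 10.7.1.1, with the background subtracted and no scaling between arrays. The deposited matrix holds linear intensity scaled to the 75th percentile of each array, and it was an alternative source. Control and outlier spots were left out, spots of a probe averaged, and log2 values centred on the array's 75th percentile. Genes were named through RefSeq accessions (28026 probes with a symbol, 27655 without), and the probe with the highest mean stood for a gene. Tested genes are those whose probe passed the file's flag for signal well above background on both arrays of 1 or more populations. A gene could thus be tested through a population in which it was bright, with little room to be called lower there. limma 3.58.1 (R 4.3.3) fitted the 4 populations together with 4 residual degrees of freedom, with Benjamini-Hochberg adjustment over 13510 genes in each of 6 comparisons. The fit was tested on simulated data. The number of arrays, 2 a population, limits the precision, and p-values rest on the spread between these samples.

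The genes, lists, tests and alternatives were chosen with earlier results of these data known. Named genes are the 9 markers, genes that check the labels (the targeted genes among them), up to 4 genes of a list with the smallest adjusted p in Nr4a-TKO preTreg against WT Tconv and up to 3 in other comparisons, defining markers not above background, and the 10 genes most alike to the mean of the 9. Lyz1, Spi1, Ear6, Ctsd and Ctsc were named after their values were seen. So were Trem1, Siglece, Csf3r, Tlr7, Il2rb, Klra8, Klrb1c, Klrd1 and Klrc1. Replicate numbers were not used as a pairing. Alternatives were quantile and median scaling, normexp background correction of the median signal (offset 50), the deposited matrix, other filters, all probes of a gene, a trend, fits of 2 populations, a replicate block, a 2-fold threshold and arrays left out. Slide row was not fitted as a block, because each population lies in 1 row, so a block could not be fitted beside the populations.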

Additional observations from a re-analysis of the deposited data

How the results depend on the processing

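The number of the 9 genes called higher than in WT Tconv ranged, with each array left out in turn, from 4 to 9 in Nr4a-TKO preTreg, from 0 to 9 in Foxp3-KO preTreg and from 0 to 6 in WT Treg. It ranged from 0 to 7 for Nr4a-TKO preTreg against WT Treg, from 0 to 1 for Foxp3-KO preTreg against WT Treg and from 0 to 4 for Nr4a-TKO preTreg against Foxp3-KO preTreg. The rest of the shifts, whose cause was not tested, were as follows. With only genes above background on all 8 arrays, 5 of the genes were left to test, and the counts against WT Tconv were 5 in Nr4a-TKO preTreg, 3 in Foxp3-KO preTreg and 1 in WT Treg, with 2 for Nr4a-TKO preTreg against WT Treg. Without a filter on dim probes, the counts were 3 for WT Treg against WT Tconv and 0 for Nr4a-TKO preTreg against WT Treg. With normexp correction, they were 0 for WT Treg against WT Tconv and 5 for Nr4a-TKO preTreg against WT Treg. A fit of the 2 populations alone called 1 gene in Foxp3-KO preTreg against WT Tconv. An intensity trend called 5 for Nr4a-TKO preTreg against WT Treg. With the replicate block, 6 were called for Nr4a-TKO preTreg against WT Treg and 1 for Nr4a-TKO preTreg against Foxp3-KO preTreg. Deviations of same-numbered samples correlated at 0.147 to 0.259 among Nr4a-TKO preTreg, Foxp3-KO preTreg and WT Treg and at -0.029 to -0.01 between these and WT Tconv. They are thus not above 0.1 in every pair, and with no label that ties the numbers the samples were not treated as paired. Settings added after seeing the data were array weights, with 5 for Nr4a-TKO preTreg against WT Treg, and leaving out replicate 1 of both Foxp3-KO preTreg and WT Treg. Without these arrays the fit gave 3 for WT Treg against WT Tconv, 9 for Nr4a-TKO preTreg against WT Treg, 1 for Foxp3-KO preTreg against WT Treg and 6 for Nr4a-TKO preTreg against Foxp3-KO preTreg. The median gap between the Foxp3-KO preTreg replicates was 2.0 with normexp correction, which raises dim values, against 2.65 as reported. Quantile and median scaling, the deposited matrix, the mean over probes and the 2-fold threshold kept each of these counts within 1.5 times. Differences of single named genes kept their side of the threshold in 1304 gene and setting pairs, lost it in 88, gained it in 67 and reversed in none (0). Slide row was not run as a block, since each population lies in 1 row. WT Tconv values near background set what a fold against it can show.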
